A study of Mus musculus with 12 samples.

Results

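The cytosolic ribosomal protein genes were followed on exon arrays of mouse bone marrow cells carrying the homeobox oncogene Hoxa9. Members were genes whose symbol is Rpl or Rps with a number (with or without a closing a, x, y or l), Rplp0, Rplp1, Rplp2 or Rpsa, read from probe sets that name 1 symbol only. The rule used names and no measured value. It found 63 genes among 20711 measured genes: 39 of the large subunit, 3 of the stalk and 21 of the small subunit. Rpl10, Rpl11 and Rps27a had no such probe set and were not analysed here.

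All 12 arrays were made from primary bone marrow cultures of female C57B/6 mice, aged 12 weeks and treated with 5-FU, a drug that spares slowly dividing stem and progenitor cells. The cells were transduced with MSCV retroviral constructs and grown in DMEM with fetal calf serum, IL3, SCF and IL6. Every group overexpressed HOXA9. Beside it, HOXA9+MEIS1 cells carried the cofactor Meis1, HOXA9+MDHD cells carried Meis1 with its homeodomain deleted, and HOXA9+MIY cells carried the empty MIY vector. Each condition had 2 arrays at week 4 and 2 at week 3 of culture. The design text counts 4 independent experiments per condition, and the labels do not tie arrays of different weeks to one culture. Retroviral expression is driven by the viral promoter and each culture is a mixed population, so a level is an average over its cells. Fewer cells of a type and less RNA per cell cannot be told apart in such samples.

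The ribosome reads mRNA on its small subunit and joins amino acids on its large subunit, and each subunit holds many different proteins bound to ribosomal RNA. The mRNAs of these proteins are among the most abundant in dividing cells and begin with a 5′ terminal oligopyrimidine tract, through which the mTOR pathway controls their translation. Loss of one copy of several of them impairs red cell formation in human disease, and free ribosomal proteins such as Rpl5 can bind Mdm2 and thereby raise p53.

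Values were log2 signals per gene, each a robust summary (median polish) of the gene's probe sets, and differences are log2 differences with the standard error (SE) of a limma fit to condition and week over 12 arrays. Called means that limma's p, adjusted by Benjamini-Hochberg across the 20711 genes, was under 0.05. All 63 members passed the filter on dim probe sets, with 442 of their 487 probe sets; 6 members rested on 1 probe set. A further 88 probe sets named a member together with another symbol and were left out. Ribosomal protein genes have many processed pseudogenes, and signal from near-identical copies cannot be separated from the gene's own. Array medians lay between 6.26 and 6.30, and any 2 arrays correlated at 0.967 to 0.985. Hoxa9 averaged 13.37 ± 0.080 in HOXA9+MEIS1, 13.35 ± 0.12 in HOXA9+MDHD and 13.29 ± 0.059 in HOXA9+MIY cells (SD, n = 4 each). Meis1 averaged 9.71 ± 0.092, 9.43 ± 0.28 and 6.84 ± 0.084 in the same order, and the gene value does not separate the full from the deleted form. The second week 4 array of HOXA9+MDHD stood apart: its mean late neutrophil marker level of 10.37 and monocyte level of 10.95 lay within the range of HOXA9+MIY cells.

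The start regions of the genes on which the results turn are shown first, since the oligopyrimidine tract defines this class of mRNA. Each line runs from 20 bases before to 25 bases after the start (base 21) in RefSeq annotation of GRCm38.p6. Capitals mark a run of at least 6 C or T that overlaps the 10 bases on either side of the start. Where a gene had several windows, the one with the longest run is shown. A marked run can lie wholly before the start and thus outside the annotated transcript, as in Rpl10a. Rpl27a, Rpl13a and Rpl22 were called in HOXA9+MEIS1 cells, Rpl35, Rps6, Rpl10a, Rpl35a and Rpl15 were lower at week 4, and Rplp2 was higher.
Rpl27a, chr7:109519175-109519219, plus strand: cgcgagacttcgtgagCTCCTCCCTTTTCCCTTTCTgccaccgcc
Rpl13a, chr7:45128721-45128765, minus strand: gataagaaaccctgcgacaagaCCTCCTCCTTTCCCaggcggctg
Rpl22, chr4:152324416-152324460, plus strand: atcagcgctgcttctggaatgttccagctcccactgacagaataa
Rpl35, chr2:39005107-39005151, minus strand: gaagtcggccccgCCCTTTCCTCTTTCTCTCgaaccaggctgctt
Rps6, chr4:86857343-86857387, minus strand: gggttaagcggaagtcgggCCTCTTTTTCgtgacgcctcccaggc
Rpl10a, chr17:28328451-28328495, plus strand: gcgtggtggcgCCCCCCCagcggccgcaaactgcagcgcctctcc
Rpl35a, chr16:33056462-33056506, plus strand: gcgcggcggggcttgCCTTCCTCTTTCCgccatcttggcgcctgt
Rpl15, chr14:18270962-18271006, minus strand: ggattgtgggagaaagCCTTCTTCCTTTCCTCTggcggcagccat
Rplp2, chr7:141447631-141447675, plus strand: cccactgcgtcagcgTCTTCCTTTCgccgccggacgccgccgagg
The run spanned 20 bases in Rpl27a, 18 in Rpl35, 17 in Rpl15 and 10 in Rps6 and in Rplp2, and the Rpl22 window held none. RefSeq windows were found for 50 of the 63 members (61 windows). Such a run stood in 31 of the 61 windows (50.8%), against 29.2% of 32851 windows of all genes. On the other strand the shares were 8.2% of the members' windows and 32.4% of all windows. The criterion was set after these windows had been read, so the shares only describe them. Over the whole window of 250 bases before to 50 after the start, on either strand, CCGGAAG (the core bound by GABP) occurred in 36.1% of the members' windows and 8.86% of all windows. AAGATGGCG (a YY1 core) occurred in 8.2% and 1.4%, and CACGTG (the E-box that Myc can bind) in 9.84% and 7.15%.

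The first question was whether Meis1 added to Hoxa9 changed ribosomal protein mRNA. In HOXA9+MEIS1 cells 58 of 63 members had a positive difference from HOXA9+MIY cells, with a median of 0.084 (6.0%). Over all genes 48.2% of differences were positive and the median was -0.0056. limma called 5 members higher and 0 lower, where 5.29% of all genes were called higher and 5.55% lower. At an unadjusted p under 0.05, 20 members were higher and 0 lower, where 11.3% of all genes were higher and 10.7% lower. The difference per gene was therefore small: the 5 called genes lay between 1.06-fold and 1.17-fold higher. The count was not stable, and leaving out any one of 4 arrays (week 3 replicate 1 or either week 4 replicate of HOXA9+MIY, or week 4 replicate 1 of HOXA9+MEIS1) brought it to 0. It was 3, 1 and 2 without week 3 replicate 1, week 3 replicate 2 and week 4 replicate 2 of HOXA9+MEIS1, and 8 without week 3 replicate 2 of HOXA9+MDHD. The members' median lay between 0.074 and 0.093 whichever array was left out. For comparisons of conditions, the shares of all genes called with an array left out are not given here.

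Rpl22 binds the outside of the large subunit and also takes part in lymphocyte development. Its log2 values in HOXA9+MEIS1 cells were 9.89 and 9.85 at week 4 and 9.73 and 9.70 at week 3, against 9.62 and 9.67 at week 4 and 9.35 and 9.61 at week 3 in HOXA9+MIY cells. The 2 groups did not overlap, and the difference was 0.23 (SE 0.059, limma adjusted p 0.0249). HOXA9+MDHD cells had 9.80 and 9.73 at week 4 and 9.53 and 9.56 at week 3, which overlapped both other groups. Of its 8 probe sets, 7 were higher in HOXA9+MEIS1 cells, 1 of them called.

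Rpl27a, another large subunit protein, had 11.63 and 11.57 at week 4 and 11.52 and 11.62 at week 3 in HOXA9+MEIS1 cells, against 11.36 and 11.36 at week 4 and 11.34 and 11.42 at week 3 in HOXA9+MIY cells. All HOXA9+MEIS1 arrays lay above all HOXA9+MIY arrays, by 0.22 on average (SE 0.053, limma adjusted p 0.0205). In HOXA9+MDHD cells the values were 11.72 and 11.46 at week 4 and 11.54 and 11.54 at week 3, also above every HOXA9+MIY array, and the difference of 0.19 was not called (limma adjusted p 0.104).

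Rpl13a is a large subunit protein that can leave the ribosome and, in human monocytes, silence inflammatory mRNAs. Its values were 12.18 and 12.14 at week 4 and 12.06 and 12.06 at week 3 in HOXA9+MEIS1 cells, against 11.92 and 11.90 at week 4 and 11.99 and 12.02 at week 3 in HOXA9+MIY cells. The groups did not overlap (difference 0.16, SE 0.043, limma adjusted p 0.0351), and 16 of its 17 probe sets were positive, 3 of them called.

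Rps20, of the small subunit head, averaged 13.39 ± 0.017 in HOXA9+MEIS1 cells, 13.31 ± 0.042 in HOXA9+MDHD cells and 13.29 ± 0.030 in HOXA9+MIY cells (SD, n = 4 each). Rpl3, near the peptidyl transferase centre, averaged 13.34 ± 0.025 in HOXA9+MEIS1 cells, 13.33 ± 0.050 in HOXA9+MDHD cells and 13.25 ± 0.019 in HOXA9+MIY cells. Neither gene's HOXA9+MEIS1 values overlapped those of HOXA9+MIY. These were the smallest called differences, 0.099 for Rps20 (limma adjusted p 0.0310) and 0.091 for Rpl3 (limma adjusted p 0.0397). All 7 probe sets of Rps20 and 21 of 24 of Rpl3 were positive, but 0 of them were called.

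**Figure D1:**
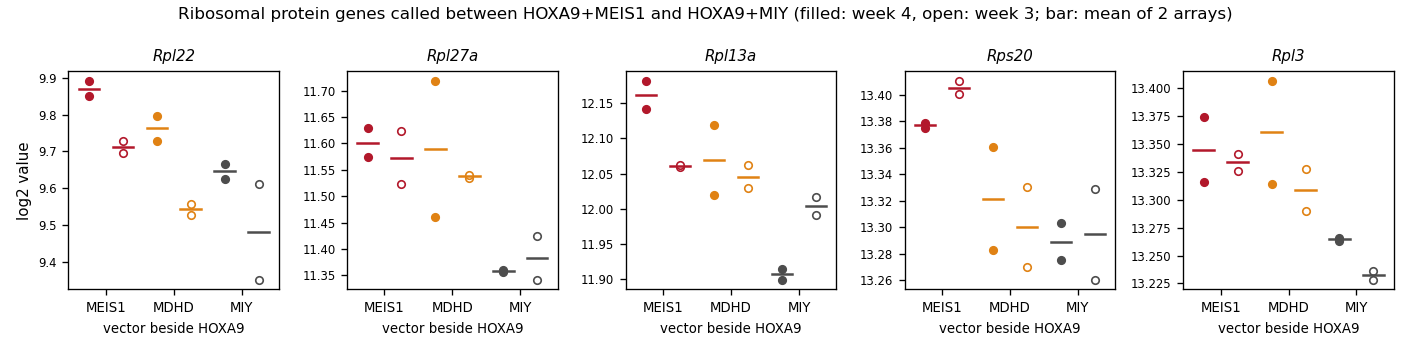
Log2 value on each array for the 5 genes called between HOXA9+MEIS1 and HOXA9+MIY cells, by vector beside HOXA9; filled points are week 4, open points week 3 and bars the mean of 2 arrays. Every red point lies above every grey point of its panel, and the vertical scales are narrow and differ between panels.

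Per array, the members' median deviation from their own mean over 12 arrays ran from 0.023 to 0.047 in HOXA9+MEIS1 cells, from -0.022 to 0.064 in HOXA9+MDHD cells and from -0.051 to -0.0040 in HOXA9+MIY cells. The HOXA9+MEIS1 and HOXA9+MIY ranges did not overlap, and HOXA9+MDHD arrays overlapped both. Both subunits had like medians, 0.083 over the 39 large subunit genes and 0.092 over the 21 small subunit genes, with 4 and 1 genes called. The stalk proteins, which recruit elongation factors, had Rplp0 at -0.017 (SE 0.031), Rplp1 at 0.0050 (SE 0.044) and Rplp2 at 0.095 (SE 0.055), none of them called. The lowest member was Rpl9 at -0.39 (SE 0.23), read by 1 dim probe set that scattered between 6.34 and 7.34 within HOXA9+MEIS1 cells.

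**Figure D2:**
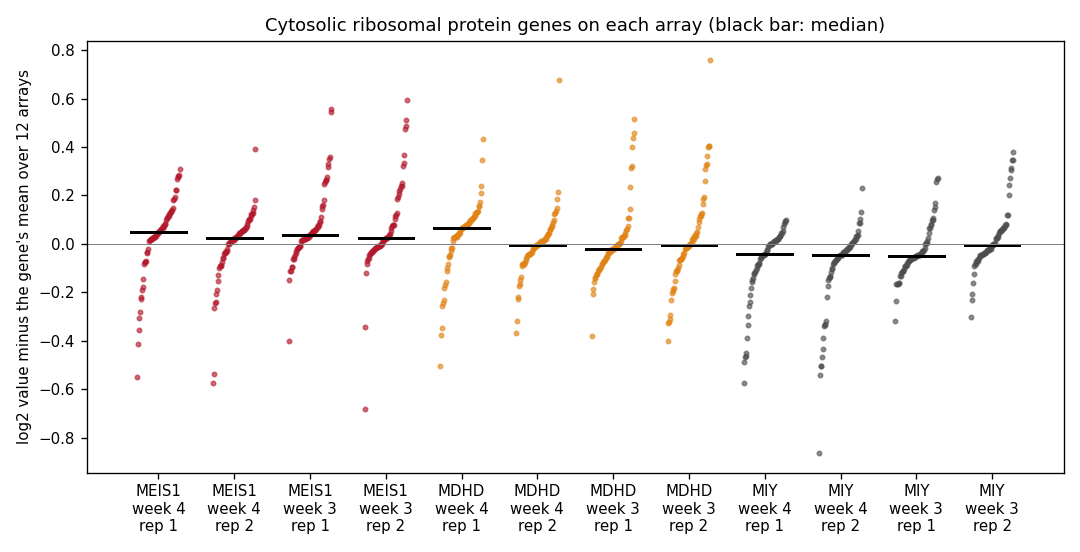
Each point is 1 of 63 ribosomal protein genes on 1 array, as the log2 value minus the gene's mean over 12 arrays; points are sorted within an array and the black bar is the median. The 4 HOXA9+MEIS1 medians lie between 0.023 and 0.047 and the 4 HOXA9+MIY medians between -0.051 and -0.0040, while single genes deviate much further.

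Markers of blood cell types also differed in this comparison. All 10 late neutrophil markers were lower in HOXA9+MEIS1 cells (median -2.36), with mean levels per array of 8.15 to 8.45 in HOXA9+MEIS1, 8.50 to 10.37 in HOXA9+MDHD and 10.20 to 11.01 in HOXA9+MIY cells. Of 10 monocyte and macrophage markers, 7 were lower and 1 was higher, with levels of 9.05 to 9.43, 10.17 to 10.95 and 10.84 to 11.01 in those groups. Of 9 stem and early progenitor markers 6 were higher, with levels of 10.03 to 10.24, 9.47 to 9.98 and 9.00 to 9.19. No marker has a true zero on this scale; B lymphoid and T and NK markers averaged between 7.04 and 7.42 on every array. The part of these cell types in the ribosomal protein differences was not tested.

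The second question was whether Meis1 without its homeodomain did the same. In HOXA9+MDHD against HOXA9+MIY cells 48 of 63 members were positive and the median was 0.038. Over all genes 44.8% of differences were positive and the median was -0.013. Here limma called 0 members, where 1.91% of all genes were called. At an unadjusted p under 0.05 there were 10 members, all higher, where 13.4% of all genes lay under it. Without the second week 4 array of HOXA9+MDHD, which stood apart, 1 member was called and the median was 0.031. The highest differences were Rpl35 at 0.48 (SE 0.12, limma adjusted p 0.0640), Rpl36a at 0.32 (SE 0.13) and Rps13 at 0.27 (SE 0.092). Against the same HOXA9+MIY arrays, HOXA9+MEIS1 cells had 0.36 (SE 0.12), 0.35 (SE 0.13) and 0.25 (SE 0.092) for these genes, also not called. Rpl35, which sits at the exit of the peptide tunnel, had 7.04 and 7.33 at week 4 and 7.93 and 8.17 at week 3 in HOXA9+MDHD cells, against 6.84 and 6.55 at week 4 and 7.35 and 7.79 at week 3 in HOXA9+MIY cells. Within each week its HOXA9+MDHD arrays lay above its HOXA9+MIY arrays. The lowest were Rpl3l at -0.20 (SE 0.14), the striated muscle paralogue of Rpl3, and the single probe sets of Rpl9 at -0.083 (SE 0.23) and Rpl28 at -0.075 (SE 0.14).

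Taken within each week, the median of HOXA9+MDHD against HOXA9+MIY cells was 0.080 with 54 of 63 members positive at week 4 and -0.0073 with 29 positive at week 3. The corresponding medians in HOXA9+MEIS1 cells against HOXA9+MIY cells were 0.097 at week 4 and 0.066 at week 3. Over all genes the medians of HOXA9+MDHD against HOXA9+MIY cells were -0.0064 at week 4 and -0.014 at week 3. The 2 HOXA9+MDHD arrays of week 4 were unlike each other. On replicate 1 the members' median deviation was 0.064 with 45 members above their own mean, on replicate 2 -0.0042 with 29. At week 3 the HOXA9+MDHD deviations were -0.022 and -0.0044, with 22 and 29 members above their own mean. The interaction of condition and week was tested in limma for every gene. For HOXA9+MDHD it called 0 members (0% of all genes), with 2 members at an unadjusted p under 0.05, where 4.81% of all genes lay under it. For HOXA9+MEIS1 it also called 0 members (0% of all genes), with 1 member at an unadjusted p under 0.05, where 6.49% of all genes did. That member was Rpl13a, called above in HOXA9+MEIS1 cells, whose difference was larger at week 4 (interaction 0.20, SE 0.067).

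**Figure D3:**
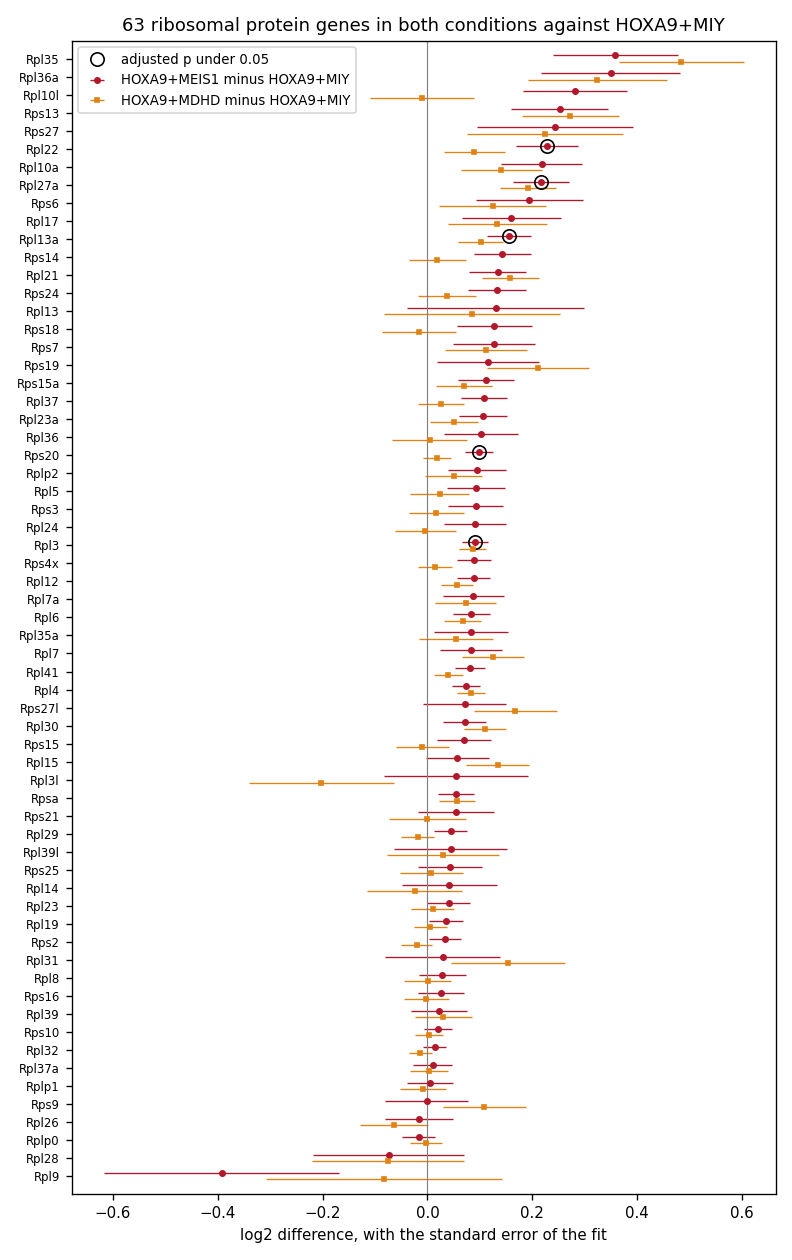
Log2 difference with its standard error for each of the 63 members, in HOXA9+MEIS1 (circles) and HOXA9+MDHD (squares) against the same 4 HOXA9+MIY arrays; black rings mark the 5 called genes. Of the circles 58 lie right of 0, and of the squares 48.

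Set against each other, HOXA9+MEIS1 and HOXA9+MDHD cells differed by a median of 0.028 over the members, with 48 of 63 positive. Over all genes the median was 0.0071 and 52.5% of differences were positive. Of the members limma called 0, where 4.36% of all genes were called. At an unadjusted p under 0.05 there were 5 members, all higher in HOXA9+MEIS1 cells, where 15.3% of all genes lay under it. Rps20 had the lowest adjusted p of the members: its 4 HOXA9+MEIS1 arrays lay above all 4 HOXA9+MDHD arrays, by 0.080 (SE 0.027, limma adjusted p 0.138). The highest differences were Rpl10l at 0.29 (SE 0.099), a testis paralogue of Rpl10, Rpl3l at 0.26 (SE 0.14) and Rps18 at 0.14 (SE 0.071). The lowest were Rpl9 at -0.31 (SE 0.23), Rpl35 at -0.13 (SE 0.12) and Rpl31 at -0.12 (SE 0.11). Rpl10l and Rpl3l were dim beside the filter level of 6.26, at 7.31 ± 0.16 and 6.57 ± 0.26 in HOXA9+MEIS1 cells and 7.02 ± 0.14 and 6.32 ± 0.24 in HOXA9+MDHD cells (SD, n = 4 each).

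The second axis of the study was time in culture. Between week 4 and week 3, 20 members were called, 10 higher and 10 lower, where 11.7% of all genes were called higher and 28.1% lower. The falls were larger: the 6 largest called falls ran from -0.89 to -0.43 and the 6 largest called rises from 0.13 to 0.27. The members' median was 0.014 and that of all genes -0.022. The balance of rises and falls depended on how arrays were scaled: there were 26 higher and 8 lower members after quantile normalization, 24 and 9 after median centring and 37 and 8 after cyclic loess. Over all genes the shares called higher and lower were 18.4% and 21.4%, 17.7% and 24.5%, and 20.6% and 19.6% under those 3 scalings. Within HOXA9+MEIS1 arrays alone 3 members were called higher and 10 lower, where 7.46% of all genes were called higher and 24.4% lower. Within HOXA9+MDHD arrays alone 0 were called, where 0.28% of all genes were. Within HOXA9+MIY arrays alone 4 were called higher and 9 lower, where 6.3% and 20.8% of all genes were. Without the second week 4 array of HOXA9+MDHD the pooled count was 11 higher and 10 lower, where 11% and 27.5% of all genes were.

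Rpl35 fell most, to 7.22, 6.84, 7.04, 7.33, 6.84 and 6.55 at week 4, against 7.97, 7.93, 7.93, 8.17, 7.35 and 7.79 at week 3, in arrays of HOXA9+MEIS1, HOXA9+MDHD and HOXA9+MIY, replicate 1 before replicate 2. Every week 4 value lay below every week 3 value (difference -0.89, SE 0.097, limma adjusted p 1.41e-05), and both its probe sets were called.

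Rps6, the small subunit protein phosphorylated by S6 kinase, had 8.15, 8.47, 8.45, 8.48, 8.24 and 8.16 at week 4, against 9.25, 9.30, 9.14, 8.82, 8.97 and 9.02 at week 3, in the same order of arrays. The weeks did not overlap (difference -0.76, SE 0.083, limma adjusted p 1.46e-05), and each of its 3 probe sets was called, between -1.09 and -0.41.

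Rpl10a, part of the mobile L1 stalk near the exit of tRNA, averaged 9.77 ± 0.17 at week 4 and 10.45 ± 0.10 at week 3 (SD, n = 6 each; difference -0.68). Its 2 probe sets disagreed in size, at -1.12 and -0.23, though both were called. Rpl17, by the tunnel exit, averaged 8.30 ± 0.18 at week 4 and 8.88 ± 0.12 at week 3 (difference -0.58), and 1 of its 2 probe sets was called. Rpl35a, one of the genes mutated in human Diamond-Blackfan anaemia, averaged 7.99 ± 0.10 and 8.47 ± 0.092 at week 4 and week 3 on its single probe set (difference -0.48).

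Rpl15 averaged 8.37 ± 0.10 at week 4 and 8.81 ± 0.075 at week 3 (difference -0.43), and 6 of its 7 probe sets were called lower. Rps27l, a p53-induced paralogue of Rps27, averaged 10.51 ± 0.16 at week 4 and 10.94 ± 0.10 at week 3 (difference -0.42, SE 0.065, limma adjusted p 0.000179), and all 6 of its probe sets were called lower. Its partner Rps27 averaged 7.15 ± 0.30 at week 4 and 6.86 ± 0.18 at week 3 and was not called. In none of these 7 genes with a fall did any week 4 array reach a week 3 array. They were the 7 largest called falls, and the share of all genes without overlap is not given here. Of the other called falls, Rps15a (-0.24) did not overlap between the weeks, while Rpl26 (-0.25) and Rpl21 (-0.13) did. Their probe sets differed in sign, from -0.88 to 0.20 in Rps15a, -1.55 to 0.21 in Rpl26 and -0.48 to 0.12 in Rpl21. Called lower were 3 of 6 probe sets in Rps15a, 2 of 4 in Rpl26 and 2 of 4 in Rpl21. In Rpl21 1 probe set was called higher.

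Among the rises, Rplp2, a stalk protein, had 12.75, 12.69, 12.72, 12.77, 12.60 and 12.65 at week 4, against 12.50, 12.49, 12.53, 12.23, 12.40 and 12.40 at week 3, in the order of arrays used above. All week 4 values lay above all week 3 values (difference 0.27, SE 0.045, limma adjusted p 0.00033), and all 3 probe sets were called higher. Rps14, whose loss accounts for the anaemia of the human 5q- syndrome, averaged 12.88 ± 0.096 at week 4 and 12.63 ± 0.11 at week 3 (difference 0.25, limma adjusted p 0.000498), with overlap. Rpl22, called above in HOXA9+MEIS1 cells, was also higher at week 4 (difference 0.18, limma adjusted p 0.00858), though the weeks overlapped. Rpl23a, Rps16 and Rpl37a rose by 0.17, 0.14 and 0.13.

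**Figure D4:**
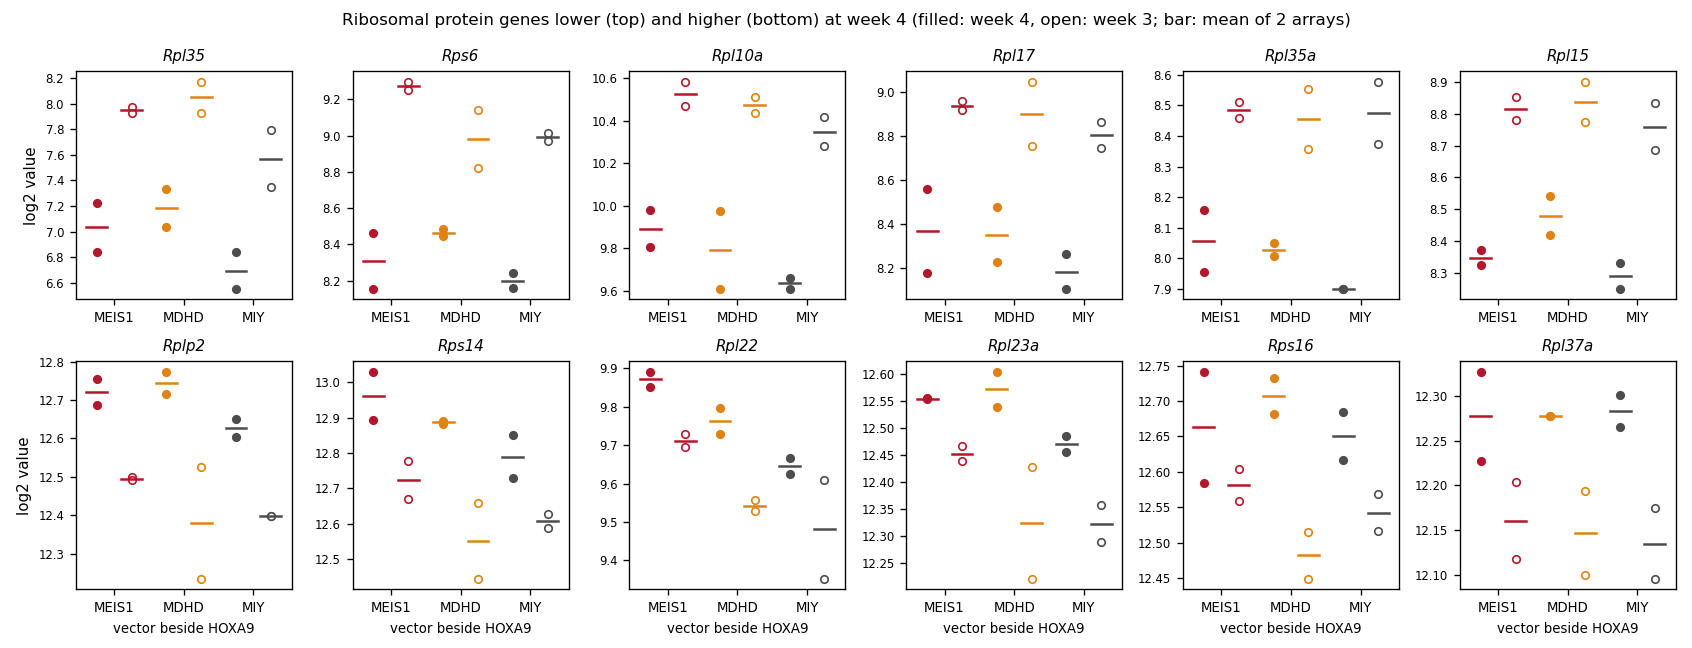
Log2 value on each array for the 6 largest called falls (top) and the 6 largest called rises (bottom) between week 4 (filled) and week 3 (open), by vector beside HOXA9; bars are the mean of 2 arrays. In the top row every filled point lies below every open point of its panel, and the top scales cover a wider range than the bottom ones.

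Of the other members with known roles, Rpl5 rose by 0.12 (limma adjusted p 0.0490) and Rpsa, which is also the laminin receptor, by 0.078 (limma adjusted p 0.0408), both near the threshold. Rps19, the gene most often mutated in human Diamond-Blackfan anaemia, averaged 7.42 ± 0.13 at week 4 and 7.58 ± 0.19 at week 3 and was not called. Rps4x, encoded on the X chromosome, averaged 12.73 ± 0.057 and 12.69 ± 0.056 at week 4 and week 3 and was not called. The paralogues Rpl39 and Rpl39l had differences of 0.0090 (SE 0.044) and 0.21 (SE 0.088), neither called.

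The week difference followed the signal of the probe set. Among the members' probe sets, the median was -0.29 for the 71 with a mean log2 under 8, -0.072 for the 77 between 8 and 10, 0.085 for the 74 between 10 and 12 and 0.051 for the 220 at 12 and over. Medians of all probe sets in those bins were -0.052, -0.14, -0.13 and -0.079. The probe sets gave 64 calls higher and 61 lower at week 4, where 9.93% of all probe sets were called higher and 31.2% lower. The pattern stood within genes too: 40 members had probe sets on both sides of 10, and in 34 of them the brighter ones had the higher difference (medians 0.055 for the brighter and -0.16 for the dimmer). In Rplp0, for example, the 4 dimmer probe sets had a median of -0.21 and the 19 brighter ones 0.053, and in Rpsa the 3 dimmer ones had -0.53 and the 11 brighter ones 0.12. The 6 exceptions were Rpl10a, Rpl22, Rpl3, Rpl4, Rpl8 and Rps15; in Rpl10a the dimmer probe set differed by -0.23 and the brighter by -1.12. With only probe sets of 10 and over, an alternative added after this pattern was seen, the members' median week difference was 0.065. Of the falls named above, Rpl35, Rpl35a, Rpl15, Rpl17 and Rps6 averaged 7.41, 8.23, 8.59, 8.59 and 8.70 over 12 arrays. Rpl10a and Rps27l averaged 10.11 and 10.73. Of the rises, Rplp2, Rps14, Rpl23a, Rps16 and Rpl37a averaged 12.56, 12.75, 12.45, 12.60 and 12.21, and Rpl22 averaged 9.67. The part of signal level in these differences was not tested.

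For the conditions, 14 of the members' 442 probe sets, from 8 genes, were called higher in HOXA9+MEIS1 against HOXA9+MIY cells and 0 lower. Of all probe sets 4.48% were called higher, a larger share than of the members', and 4.81% lower. Some of the 8 genes were not called as genes, such as Rpl4 with 3 called probe sets. There the 4 signal bins had medians of 0.13, 0.11, 0.10 and 0.054 from dim to bright, all of them positive.

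**Figure D5:**
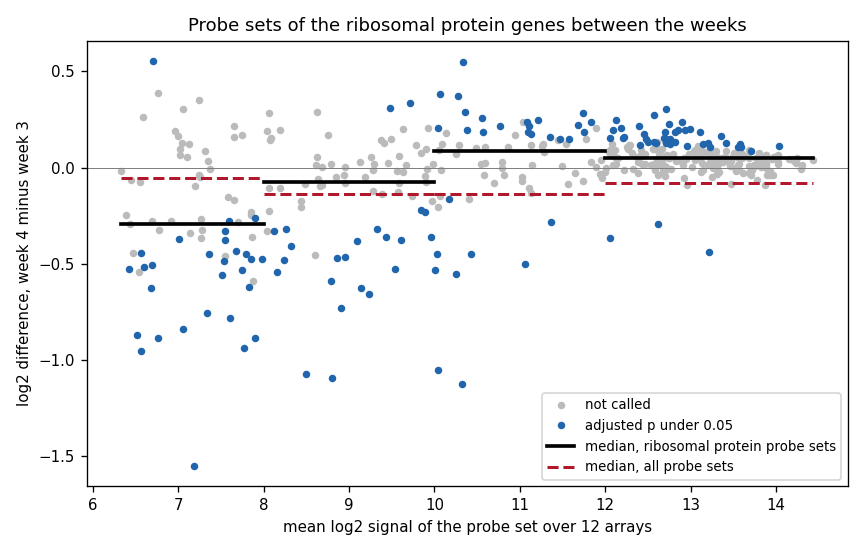
Week 4 minus week 3 log2 difference of 442 ribosomal protein probe sets against their mean log2 signal; blue points are called. Black bars, the members' medians in 4 signal bins, run from -0.29 for the dimmest to 0.051 for the brightest, and dashed bars are the medians of all probe sets.

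Lists of genes that work with the ribosome were read between the weeks against the shares of all genes, 11.7% called higher and 28.1% lower, and their difference from the members was not tested. Of 74 mitochondrial ribosomal protein genes, which build the separate ribosome of mitochondria, 66 were lower and 1 was higher at week 4 (median -0.45). Of 16 genes of RNA polymerase I and the nucleolus, where ribosomal RNA is made, 15 were lower and 0 higher (median -0.47), among them Dkc1 at -0.77 (SE 0.066) and Polr1b at -0.70 (SE 0.057). All 4 genes of the Mdm2 and p53 list were higher, led by Cdkn1a, the p21 cell cycle inhibitor, at 1.54 (SE 0.066) and Mdm4 at 0.38 (SE 0.051). Of 10 regulators of ribosomal protein transcription, the Myc antagonists Mxd1 at 1.61 (SE 0.083) and Mxi1 at 0.82 (SE 0.062) were higher and 4 were lower, including Myc at -0.39 (SE 0.044). Among 17 genes of S6 kinase signalling and oligopyrimidine tract control, 1 was higher and 9 lower, including Larp1, which binds the tract, at -0.38 (SE 0.049). Both ribosomal proteins outside the name rule, Rpl7l1 at -0.42 (SE 0.037) and Rpl22l1 at -0.19 (SE 0.059), were lower. Late neutrophil markers moved with the weeks as well, 5 of 10 higher and 0 lower (median 0.50), and 3 of 6 mast cell and basophil markers were lower; their part was not tested.

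Of 19 translation factors and other genes with an oligopyrimidine tract, 7 were higher and 0 lower in HOXA9+MEIS1 against HOXA9+MIY cells (median 0.083), where 5.29% of all genes were higher and 5.55% lower, among them Eif3e at 0.23 (SE 0.051), Hnrnpa1 at 0.20 (SE 0.047) and the nucleolar chaperone Npm1 at 0.20 (SE 0.048). In HOXA9+MDHD cells 1 of the 19 was higher, Eif4b at 0.17 (SE 0.031), and 0 were lower, where 1.91% of all genes were called. Between the weeks 4 were higher and 7 lower, where 11.7% of all genes were higher and 28.1% lower, Npm1 at -0.47 (SE 0.039) and Eef1d at -0.61 (SE 0.061) among them. Mitochondrial ribosomal protein genes gave 0 calls in either condition against HOXA9+MIY cells, with medians of 0.018 in HOXA9+MEIS1 and 0.032 in HOXA9+MDHD cells. The RNA polymerase I and nucleolus list gave 1 call in HOXA9+MEIS1 cells, Polr1c at 0.25 (SE 0.057), and 0 in HOXA9+MDHD cells.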

How the data were processed

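RNA of 12 mouse bone marrow cultures was measured on Affymetrix exon arrays. The deposited table holds log2 values per probe set, made by RMA in Affymetrix Expression Console per the submitters' processing notes; its genome build is not given in the sources used here. The number of arrays limits the precision. Gene symbols came from GEO's platform annotation: 318760 of 1256831 probe sets named 1 symbol, 6684 several and 931387 none. Probe sets with a mean log2 above the 50th percentile (6.26) were kept (233798), and those of a gene were summarised by median polish.

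limma 3.58.1 in R 4.3.3 (lmFit, eBayes with trend) was fitted to condition and week over all 12 arrays, with Benjamini-Hochberg adjustment over 20711 genes. The fit was tested on simulated data. P-values measure only the spread between these arrays. Named genes were all called members of a comparison, the 6 largest rises and 6 largest falls where over 12 were called, the 3 highest and 3 lowest where none was, and a list of stalk, disease and paralogue genes. The members, related lists and markers were chosen with earlier results of these data known. Replicate numbers did not pair the arrays: over 12 matched pairs, deviations correlated at -0.32 to -0.015, and 0 of 12 arrays correlated best with their own number. Promoter windows came from RefSeq (GRCm38.p6), read in Python 3.11.15. Alternatives covered the filter, the summary, 3 further normalizations, the fit's terms, single weeks and conditions, and each array left out.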

Additional observations from a re-analysis of the deposited data

Results flagged for a closer look

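Of 102 groups of 4 arrays (34 genes in 3 conditions), 4 held an array far from the other three by Dixon's criterion, which chance meets in about 1 group in 20. In HOXA9+MEIS1 cells, Rpl36a had 8.17 on week 4 replicate 2, below 8.55 to 8.61 on the other arrays. In HOXA9+MIY cells, Rpl3l had 6.39 on week 4 replicate 2, below 6.55 to 6.58. In the same cells Rpl5 had 10.35 on week 3 replicate 2, below 10.56 to 10.59, and Rps4x had 12.71 on week 4 replicate 1, above 12.66 on the others. None of the 4 genes was called in a comparison of conditions, and Rpl5 was called between the weeks.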

How the results depend on the processing

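The 32 results on single genes were each read under 24 to 27 alternative settings, which gave 832 readings. Of these, 709 kept direction and side of the threshold, 113 kept direction and lost the call, 1 gained it and 9 changed sign. The genes called in HOXA9+MEIS1 against HOXA9+MIY cells lost the call in 8 (Rpl27a) to 15 (Rps20 and Rpl3) of 27 settings. The count of 5 genes called in HOXA9+MEIS1 against HOXA9+MIY cells was 3 without probe sets above 13, 2 with no trend, 0 with no week term, 13 with only the groups compared, and 0 with week 3 or week 4 arrays alone. It was 3 with the replicate block, whose numbers do not pair the arrays, and 0 to 8 when 1 array was left out. The shares of all genes called were 10.8% without probe sets above 13, 9.99% with no trend and 4.36% with no week term. They were 14.9% with only the groups compared, 4.43% and 4.1% with week 3 and week 4 arrays alone, and 9.85% with the replicate block. The count of 0 for HOXA9+MDHD against HOXA9+MIY cells was 1 with the mean of the probe sets, where 2.08% of all genes were called. It was 1 after cyclic loess, where 2.13% of all genes were called, and 0 to 1 with 1 array left out. The median of HOXA9+MDHD against HOXA9+MIY cells was 0.0797 in week 4 and -0.00730 in week 3 arrays alone. That of HOXA9+MEIS1 against HOXA9+MDHD cells was 0.000703 in week 4 alone. The count of 20 between the weeks was 34 after quantile normalization, 33 after median centring and 45 after cyclic loess. The shares of all genes called there were 39.8%, 42.1% and 40.2%. It was 13 in HOXA9+MEIS1, 0 in HOXA9+MDHD and 13 in HOXA9+MIY arrays alone, where 31.9%, 0.28% and 27.1% of all genes were called. With genes of 3 or more probe sets, only 46 members were left and 13 were called, where 45.3% of all genes were. The count was 16 to 21 with 1 array left out. The members' median between the weeks, 0.014, was -0.0248 with the mean of the probe sets, 0.0935, 0.0644 and 0.123 after quantile normalization, median centring and cyclic loess, 0.0493 in HOXA9+MDHD and -0.0164 in HOXA9+MIY arrays alone, and 0.0652 with only probe sets of 10 and over. The last and the minimum of 3 probe sets were added after the data were seen. Signs changed for Rpl3l with no filter (0.034 in HOXA9+MDHD against HOXA9+MIY, -0.059 in HOXA9+MEIS1 against HOXA9+MDHD), and, in HOXA9+MDHD against HOXA9+MIY cells, for Rpl9 in week 4 alone (0.063) and for Rpl9 and Rpl28 with 1 array left out. Leaving out 1 array gave Rpl9 a range of -0.30 to 0.044, positive without HOXA9+MDHD week 4 replicate 1, and Rpl28 a range of -0.23 to 0.067, positive without HOXA9+MDHD week 3 replicate 1. They also changed for Rpl31 in HOXA9+MEIS1 against HOXA9+MDHD cells with no filter (0.042), the stricter filter (0.043) and only probe sets of 10 and over (0.065), and for Rpsa between the weeks with the mean of the probe sets (-0.018). Apart from fewer arrays or genes, the causes were not tested. The dim levels of Rpl9, Rpl3l, Rpl10l, Rps27 and Rpl35 limit what their values show.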
